A study of Homo sapiens with 9 samples.

Results

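Cells of the human osteosarcoma line U-2 OS were transfected with Cas9 mRNA and then with a guide RNA that directs Cas9 to SUGP1 (crSUGP1), a guide to XCR1 (crXCR1) or a non-targeting guide (NTC). The 6 libraries of cells in which a guide cut the genome, 3 of crSUGP1 and 3 of crXCR1, were set together against the 3 NTC libraries, across all genes, with the experiment as a block. These are all 9 libraries of the series, from 3 independent experiments with 1 library per guide each, and all of them received Cas9. Genes were read as moving after both cuts when all 6 cut libraries lay on the same side of the NTC library of their own experiment and the comparison was called. This held for 222 of the 20176 genes counted over in a fit that keeps the 3 guides apart, and for 0 genes in the pooled test with 2 groups.

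The guides differ in more than cutting. SUGP1 is a nuclear RNA-binding protein, and its RNA was lower in crSUGP1 cells, which also carried a break, whereas XCR1 is a chemokine receptor of dendritic cells that the study chose as a control for the break alone. Each condition rests on 1 guide sequence, so cutting cannot be told apart from any other difference between the NTC guide and the pair of cutting guides. The sample labels give 72 h with the guides at 50 nM, in a protocol for plates, and since the RNA came from flasks, the time that applied to it may differ. The cut sites are shown with the protospacer in lower case and the NGG motif that Cas9 needs (PAM) in capitals, since they set which genes were left out.

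crSUGP1: tacttgtacccttggctattGGG
crXCR1: gtgtttctcctcagcctagtGGG

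In hg38 the crSUGP1 site lies at chr19:19297309-19297328 on the plus strand, in coding exon 8 of 14 of SUGP1 (ENST00000247001.10, minus strand), with the cut placed after position 19297325. The crXCR1 site lies at chr3:46021808-46021827 on the minus strand, in coding exon 2 of 2 of XCR1 (ENST00000309285.4, minus strand), with the cut placed after position 46021810. Genes of chromosome 19 and chromosome 3 that end before these positions, 622 and 273 of those tested, were tested with the rest and left out of every count of members.

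Read pairs counted over exons totalled 68712738 to 107952835 per library, and the mitochondrially encoded share was 4.23 to 4.77% in crSUGP1, 4.16 to 4.71% in crXCR1 and 4.03 to 5.01% in NTC libraries. Levels are given as CPM, counts relative to the TMM-scaled library total, with no correction for gene length. SUGP1 was at 7.87, 7.68 and 6.52 CPM in crSUGP1 libraries, 31.6, 29.0 and 28.2 CPM in crXCR1 libraries and 30.2, 30.8 and 28.3 CPM in NTC libraries. XCR1 had 0 counts in each crSUGP1 library, 13, 13 and 14 counts in crXCR1 libraries and 0, 0 and 1 count in NTC libraries. Of the osteoblast and mesenchymal markers, VIM, SPARC and COL1A1 were abundant and COL1A2 and SP7 were near 0, at no more than 0.215 and 0.0627 CPM. The summed level of that list was 3940 to 4190 CPM in crSUGP1, 4240 to 4530 CPM in crXCR1 and 4200 to 4660 CPM in NTC libraries, and the leukocyte list summed to 17.5 to 21.4, 17.7 to 20.8 and 17.8 to 21.1 CPM, with CD3E at 0 throughout.

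p53 is the transcription factor that responds to DNA breaks. Kinases activated at a break stabilise it by keeping it from the ubiquitin ligase MDM2, and it then raises transcription of genes that halt the cell cycle, repair DNA or promote cell death, MDM2 among them. Cas9 cutting is known to raise p53 activity. The 24 gene lists examined were chosen with earlier results of these data known, so their order is not an independent ranking. Of these 24 lists, the p53 targets held the largest share of genes higher than NTC in all 6 cut libraries. Of 57 tested targets, 55 lay outside the left-out parts, and 37 of those 55 were higher than NTC in all 6 cut libraries while 0 were lower in all 6. Among all 20176 genes outside the left-out parts, 4.53% were higher in all 6 and 3.72% lower in all 6. The median log2 fold change of the targets was 0.31 in crSUGP1 and 0.14 in crXCR1 against NTC, beside 0.00 in both over all genes. Both cut groups were set against the same NTC libraries, so a chance deviation of an NTC library moves both in the same direction.

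The tests differed in how many genes they called. The pooled edgeR quasi-likelihood test called 0 of 21071 genes (0% at an adjusted p of at most 0.05), with a smallest adjusted p of 0.603. At an unadjusted p under 0.05 it held 884 genes, 503 of them higher and 381 lower. In this fit the difference between crSUGP1 and crXCR1 counts as spread within a group, and that difference was called for 4577 genes when it was tested by itself. DESeq2 with the same pooled group and block called 16 genes (0.0759%). The edgeR fit with 3 groups, in which the mean of both cut groups was set against NTC, called 204 genes higher (0.968%) and 257 lower (1.22%). With the demand that all 6 cut libraries lie on the same side, 145 genes outside the left-out parts were higher (0.719% of 20176) and 77 were lower (0.382%). A further 13 genes of the left-out parts met it, 2 higher and 11 lower. These counts depended on single libraries: without NTC replicate 1 they were 55 higher and 50 lower, without NTC replicate 2 79 higher, without NTC replicate 3 81 higher, without crXCR1 replicate 1 88 higher, without crSUGP1 replicate 1 48 lower, and without crSUGP1 replicate 3 316 higher and 227 lower. Without the block they were 10 higher and 7 lower. "Rose", "fell" and "counted" are used below of genes outside the left-out parts that met both demands, a call in the 3-group fit and all 6 cut libraries on the same side, and "called" of the call alone. The adjusted p printed is that of the 3-group fit.

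The mean of both cut groups can pass when crSUGP1 carries it. Each cut group's own value is therefore given for the counted genes as a whole and for many of those named. Of the 145 genes that rose, 107 had an unadjusted p under 0.05 in both crSUGP1 and crXCR1 against NTC, and of the 77 that fell, 26 did. The median log2 fold change of the genes that rose was 0.50 in crSUGP1 and 0.22 in crXCR1, and that of the genes that fell was -0.47 in crSUGP1 and -0.09 in crXCR1. In crXCR1, 22 of the genes that rose and 44 of those that fell lay within 0.1 of 0. The difference between the cut groups was itself called for 93 of the 145 and 62 of the 77 genes, beside 20.6% of all genes outside the left-out parts. All 6 cut libraries lay beyond all 3 NTC libraries for 58 of the genes that rose and 8 of those that fell, where 0.887% of all genes outside the left-out parts were above in this way and 0.387% below. The counted genes were chosen by the position of these same libraries, so a larger share was built in and adds no evidence. The call on the mean likewise favours genes that moved far in crSUGP1, so the medians and differences above depend on that choice. By itself, crXCR1 against NTC called 3 genes, INPP5D outside the left-out parts and TMEM43 and XIRP1 within that of chromosome 3, and crSUGP1 against NTC called 3305.

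**Figure D1:**
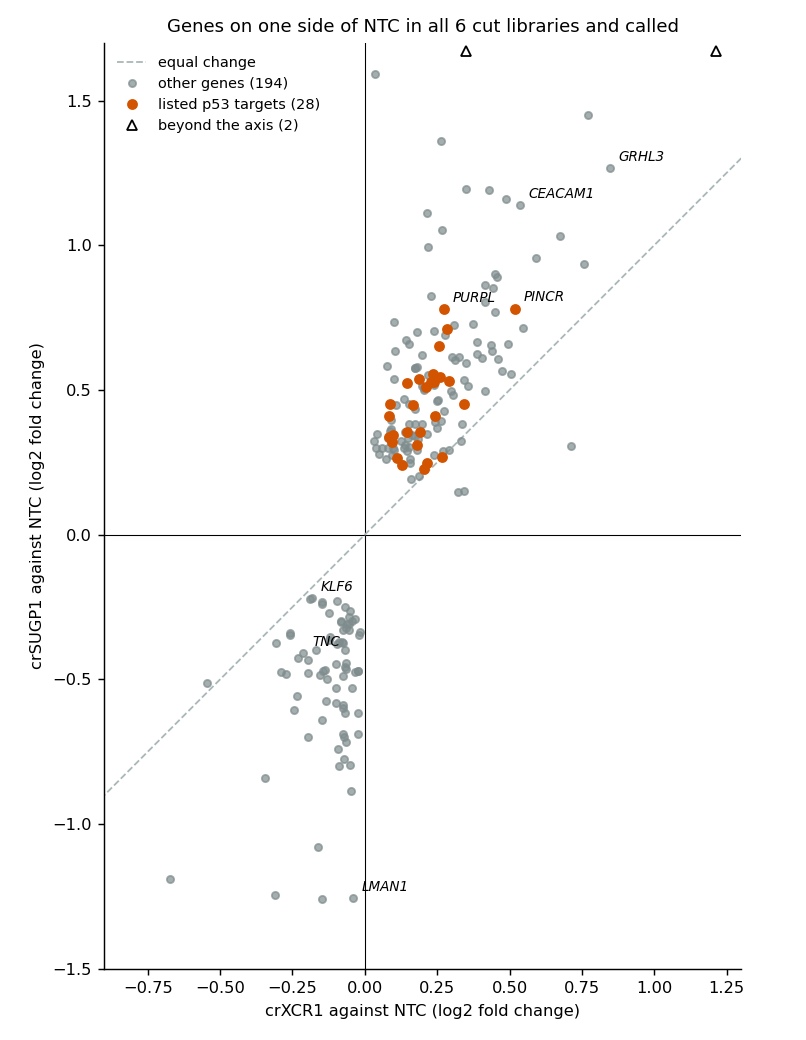
Log2 fold change against NTC of crSUGP1 (vertical) and crXCR1 (horizontal) for the 222 genes counted in the 3-group fit, 28 of them listed p53 targets (orange), with the dashed line at equal change. Both axes share the NTC libraries and the sign was fixed by the rule. Most points lie farther from 0 in crSUGP1 (141 of 145 above, 76 of 77 below). The genes were chosen by a call on the mean, which favours genes that moved far in crSUGP1. This imbalance thus cannot be told apart from the way the genes were chosen. Triangles at the upper edge stand for 2 genes beyond the axis, AL158196.1 at 4.50 and LINC00315 at 2.84 in crSUGP1, both under 1 CPM.

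CDKN1A encodes p21, the inhibitor of cyclin-dependent kinases through which p53 halts the cell cycle. It was at 260, 269 and 230 CPM in crSUGP1 libraries, 228, 208 and 207 CPM in crXCR1 libraries and 185, 173 and 167 CPM in NTC libraries. All 6 cut libraries lay above all 3 NTC libraries, with crSUGP1 the highest of the 3 groups. CDKN1A rose by 0.41 on the log2 scale (SE 0.044, adjusted p = 7.46e-05), by 0.53 in crSUGP1 and 0.29 in crXCR1, and DESeq2 called it at an adjusted p of 0.00492. In the pooled test it stood at 0.42 (SE 0.081, adjusted p = 0.603). The gene overlaps DINOL, so reads of that transcript may be counted with it.

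MDM2, the ligase that holds p53 low, was at 170, 170 and 172 CPM in crSUGP1 libraries, 140, 151 and 128 CPM in crXCR1 libraries and 123, 119 and 114 CPM in NTC libraries. It rose by 0.38 (SE 0.045, adjusted p = 0.000181), with no overlap between cut and NTC libraries, and missed the threshold in DESeq2 (adjusted p = 0.0652). PPM1D, a phosphatase that also acts against p53, rose by 0.25 (adjusted p = 0.00227), by 0.36 in crSUGP1 and 0.15 in crXCR1. MDM4, a relative of MDM2 that restrains p53, stood at -0.06 (adjusted p = 0.735) and did not pass. Of the list of p53 regulators, 1 of 15 tested genes was higher in all 6 cut libraries and 0 were called.

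FAS, the death receptor, was at 23.1, 25.0 and 22.5 CPM in crSUGP1 libraries, 19.03, 17.97 and 15.55 CPM in crXCR1 libraries and 15.3, 14.2 and 13.6 CPM in NTC libraries. It rose by 0.50 (SE 0.054, adjusted p = 8.74e-05), by 0.71 in crSUGP1 and 0.28 in crXCR1, and that difference of 0.43 was called (adjusted p = 0.000194). FAS overlaps ACTA2, a gene on the opposite strand that also rose (0.35, adjusted p = 0.0447), and whether their reads were kept apart is not stated. The mitochondrial death genes that p53 is best known for were not called. BBC3, which encodes PUMA, was at 28.6, 27.9 and 25.0 CPM in crSUGP1 libraries, 27.8, 27.8 and 32.9 CPM in crXCR1 libraries and 25.5, 19.5 and 28.7 CPM in NTC libraries. The groups overlapped and BBC3 was not called (0.21, SE 0.082, adjusted p = 0.219). BAX, the pore-forming partner, stood at 0.13 (SE 0.051, adjusted p = 0.252) and PMAIP1, which encodes NOXA, at 0.05 (adjusted p = 0.709). Of the apoptosis list, 2 of 28 genes were higher and 3 lower in all 6, and 0 were called.

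SESN1, a sestrin that restrains mTORC1, was at 21.4, 23.7 and 25.1 CPM in crSUGP1 libraries, 18.1, 17.6 and 17.7 CPM in crXCR1 libraries and 14.5, 15.1 and 15.03 CPM in NTC libraries, with no overlap. SESN1 rose by 0.45 (SE 0.053, adjusted p = 0.000153), and its relative SESN2 by 0.33 (adjusted p = 0.000987). SESN2 stood at 0.52 in crSUGP1 and 0.15 in crXCR1. BTG2, an antiproliferative gene, was at 66.6, 69.6 and 67.7 CPM in crSUGP1 libraries, 55.4, 56.1 and 55.8 CPM in crXCR1 libraries and 47.8, 42.9 and 49.0 CPM in NTC libraries. It rose by 0.40 (SE 0.046, adjusted p = 0.000133), and DESeq2 also called it (adjusted p = 0.0356). FDXR, the mitochondrial ferredoxin reductase, rose by 0.40 (SE 0.048, adjusted p = 0.000222) and ZMAT3, an RNA-binding protein, by 0.36 (SE 0.045, adjusted p = 0.000269). In crSUGP1 and crXCR1, FDXR stood at 0.56 and 0.24 and ZMAT3 at 0.54 and 0.19. FDXR libraries of cut cells lay between 158 and 214 CPM and those of NTC between 131 and 143 CPM. Among the targets that did not pass were CPT1C, a carnitine palmitoyltransferase (-0.22, adjusted p = 0.40), GADD45A, a stress sensor of the cell cycle (0.01, adjusted p = 0.934), and PLK3, a stress-responsive kinase (0.10, adjusted p = 0.346).

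DDB2, which recognises UV damage, was at 91.3, 93.0 and 103 CPM in crSUGP1 libraries, 91.1, 91.5 and 100 CPM in crXCR1 libraries and 79.7, 78.8 and 87.1 CPM in NTC libraries. Its change was 0.23 (SE 0.043) in crSUGP1 and 0.20 (SE 0.043) in crXCR1 (3-group adjusted p = 0.00502), and the difference of 0.02 between them did not pass (adjusted p = 0.725). RRM2B, the p53-inducible subunit of ribonucleotide reductase, rose by 0.38 (adjusted p = 0.000243), with 0.53 in crSUGP1 and 0.23 in crXCR1. POLH, a translesion DNA polymerase, rose by 0.21 (adjusted p = 0.0125), with 0.32 in crSUGP1 and 0.09 in crXCR1, a difference that was called (adjusted p = 0.00368). TP53I3, a quinone oxidoreductase, stood at 0.25 in crSUGP1 and 0.21 in crXCR1, TP53TG1, a noncoding RNA, at 0.27 in both, and TP53INP1, a stress-induced nuclear protein, at 0.45 and 0.34. All 3 rose (adjusted p = 0.00478, 0.0112 and 0.000968), and none of these differences between cuts passed (adjusted p = 0.64, 0.989 and 0.235). GDF15, a secreted stress cytokine, lies in the left-out part of chromosome 19 and is given as values. It was at 42.1, 44.6 and 28.2 CPM in crSUGP1 libraries, 44.4, 37.3 and 33.4 CPM in crXCR1 libraries and 35.8, 28.2 and 24.6 CPM in NTC libraries, higher than NTC of the same experiment in each. XPC, in the left-out part of chromosome 3, stood at 0.27 in crSUGP1 and -0.15 in crXCR1.

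**Figure D2:**
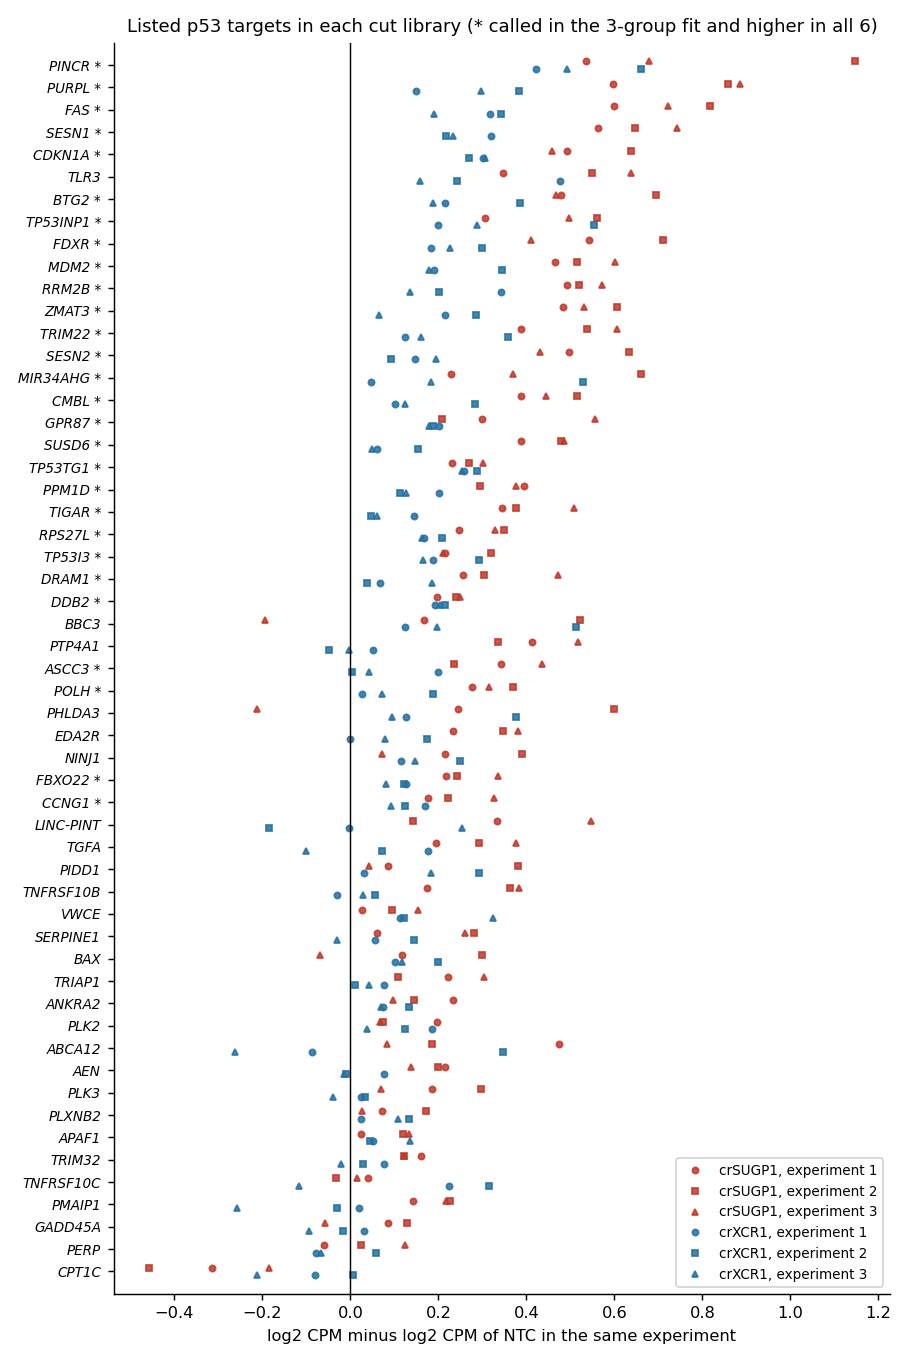
Log2 CPM of each cut library minus that of the NTC library of the same experiment (horizontal), for the 55 listed p53 targets outside the left-out parts, ordered by their mean change. An asterisk marks the 28 that were called in the 3-group fit and higher in all 6 cut libraries. The crSUGP1 points (red) lie mostly to the right of the crXCR1 points (blue), and CPT1C, PERP and GADD45A at the bottom lie around or below 0.

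Over the list, the 3-group fit called 30 of the 55 targets higher and 0 lower, beside 0.968% higher and 1.22% lower of all genes tested, left-out parts included. Of these 30, 28 were higher in all 6 cut libraries, and they were 19.3% of the 145 genes that rose. The other called targets were PTP4A1, a phosphatase (0.21, adjusted p = 0.0137, higher in 4 of 6), and EDA2R, a receptor of the TNF receptor family (0.20, adjusted p = 0.0261, higher in 5 of 6). Another 9 were higher in all 6 libraries without being called, 9 were higher in 5, 6 in 4 and 3 in no more than 3. The 28 ranged between 0.23 and 0.78 in crSUGP1 and between 0.08 and 0.52 in crXCR1, and 23 of them had an unadjusted p under 0.05 in each cut group. Each of the 28 was higher in crSUGP1 than in crXCR1, and the difference was called for 20. The call that chose the 28 favours targets that moved far in crSUGP1. Within the experiments the median of the list was 0.23, 0.32 and 0.34 in crSUGP1 and 0.12, 0.19 and 0.13 in crXCR1. DESeq2 called 5 of the 55, which are CDKN1A, BTG2, TP53I3, TP53INP1 and DDB2. Without the block on the experiment the 3-group fit counted 5 of the 55, without NTC replicate 1 it counted 17, and without experiment 1 it counted 14.

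A pair of noncoding targets, PINCR and PURPL, had the largest folds of the list. PINCR was at 2.42, 2.90 and 2.32 CPM in crSUGP1 libraries, 2.24, 2.06 and 2.04 CPM in crXCR1 libraries and 1.66, 1.297 and 1.44 CPM in NTC libraries, and it rose by 0.65 (SE 0.104, adjusted p = 0.0027). PURPL, which acts back on p53 levels, was at 40.4, 39.9 and 42.9 CPM in crSUGP1 libraries, 29.6, 28.7 and 28.5 CPM in crXCR1 libraries and 26.7, 21.97 and 23.2 CPM in NTC libraries. PURPL rose by 0.53 (SE 0.053, adjusted p = 4.26e-05), by 0.78 in crSUGP1 and 0.27 in crXCR1. MIR34AHG, the host transcript of the p53-induced miRNA miR-34a, rose by 0.33 (adjusted p = 0.0115), and LNCTAM34A on its opposite strand by 0.36 (adjusted p = 0.0177), and reads of the 2 cannot be told apart unless the counting used strand.

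The p53 response element, a pair of 10-base palindromic motifs, was searched on both strands of the RefSeq promoters (GRCh38.p14, 250 bases before to 50 after the start). With no mismatch it was in 5 of 27305 promoters (0.0183%), and in 3 of the 12475 promoters of tested genes. Those 3 genes, LNCTAM34A, PTCHD4 and PURPL, were all among the 145 that rose. With up to 2 mismatches outside the C and G of each motif, it was in 56 of the 12475 promoters (0.449%). These included 1 of 20 promoters of counted p53 targets, 5 of 72 of the other genes that rose and 0 of 62 of those that fell. Of the 44 promoters of tested p53 targets 2 held it, those of PURPL and AEN, and AEN was not counted. Elements outside the window were not searched for, so a promoter without one may still have one elsewhere in the gene. Most promoters with such an element thus belonged to genes that were not counted. The 3 without mismatch are printed with the element in capitals and 20 bases on each side, in the direction of transcription.

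LNCTAM34A: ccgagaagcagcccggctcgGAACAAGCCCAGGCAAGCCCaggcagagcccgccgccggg
PTCHD4: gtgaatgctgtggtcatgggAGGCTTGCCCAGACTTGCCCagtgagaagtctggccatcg
PURPL: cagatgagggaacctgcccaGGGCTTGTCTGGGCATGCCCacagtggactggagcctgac

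The windows lie at chr1:9182124-9182183 on the plus strand, chr6:48111178-48111237 on the minus strand and chr5:27472145-27472204 on the plus strand. The PURPL window lies inside the span that the deposited table gives the gene, chr5:27217714-27496994, far from its start there. Which start the counted PURPL reads came from was not tested. PTCHD4, a patched-domain protein, was at 9.01, 8.77 and 8.39 CPM in crSUGP1 libraries, 6.11, 6.64 and 6.67 CPM in crXCR1 libraries and 5.92, 5.67 and 6.47 CPM in NTC libraries. It rose by 0.32 (adjusted p = 0.017), with 0.54 in crSUGP1 and 0.10 (unadjusted p = 0.199) in crXCR1, and the RefSeq start used here lies outside the span that the deposited table gives the gene. A match of letters is a description and not a measured binding site. Promoters of 20 of the 28 counted p53 targets were in the table, too few for a share of that set.

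Among genes that no list held, those with the largest folds included GRHL3, a transcription factor of epithelia. It was at 1.99, 1.86 and 3.05 CPM in crSUGP1 libraries, 1.43, 1.86 and 1.85 CPM in crXCR1 libraries and 0.990, 0.733 and 1.09 CPM in NTC libraries. Cut and NTC libraries did not overlap, and GRHL3 rose by 1.06 (SE 0.134, adjusted p = 0.000318), with 1.27 in crSUGP1 and 0.85 in crXCR1. CEACAM1, an adhesion molecule, rose by 0.84 (SE 0.122, adjusted p = 0.00111), with means of 1.69 CPM in crSUGP1, 1.10 in crXCR1 and 0.763 in NTC libraries. NECTIN4, another adhesion molecule, averaged 15.77 ± 1.07 CPM in crSUGP1, 12.33 ± 0.337 CPM in crXCR1 and 9.49 ± 0.878 CPM in NTC libraries (SD, n = 3 each). It rose by 0.55 (SE 0.061, adjusted p = 8.89e-05).

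INPP5D encodes SHIP1, a phosphatase of phosphoinositide signalling known from blood cells. It was at 21.8, 21.1 and 25.9 CPM in crSUGP1 libraries, 18.4, 17.7 and 22.5 CPM in crXCR1 libraries and 14.8, 12.8 and 17.1 CPM in NTC libraries. INPP5D rose by 0.51 (SE 0.049, adjusted p = 3.61e-05), and it was the gene outside the left-out parts that crXCR1 alone called against NTC (0.39, SE 0.055, adjusted p = 0.0268). ALOX5, the 5-lipoxygenase of leukotriene synthesis, rose by 0.46 (adjusted p = 0.00118) with 0.50 in crSUGP1 and 0.41 in crXCR1, a difference of 0.08 that did not pass (adjusted p = 0.459). Other genes called by DESeq2 and in the 3-group fit alike, with the log2 fold change of that fit in brackets, were IGFL2-AS1 (0.61), AC093866.1 (0.44), CYFIP2 of the WAVE complex (0.33), EFCAB14 (0.31), INKA2 (0.31) and ANXA8L1 (0.54), whose near-identical paralog ANXA8 (0.51) may share its reads. All 15 genes that DESeq2 called outside the left-out parts were higher in all 6 cut libraries, and 0 genes were lower.

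**Figure D3:**
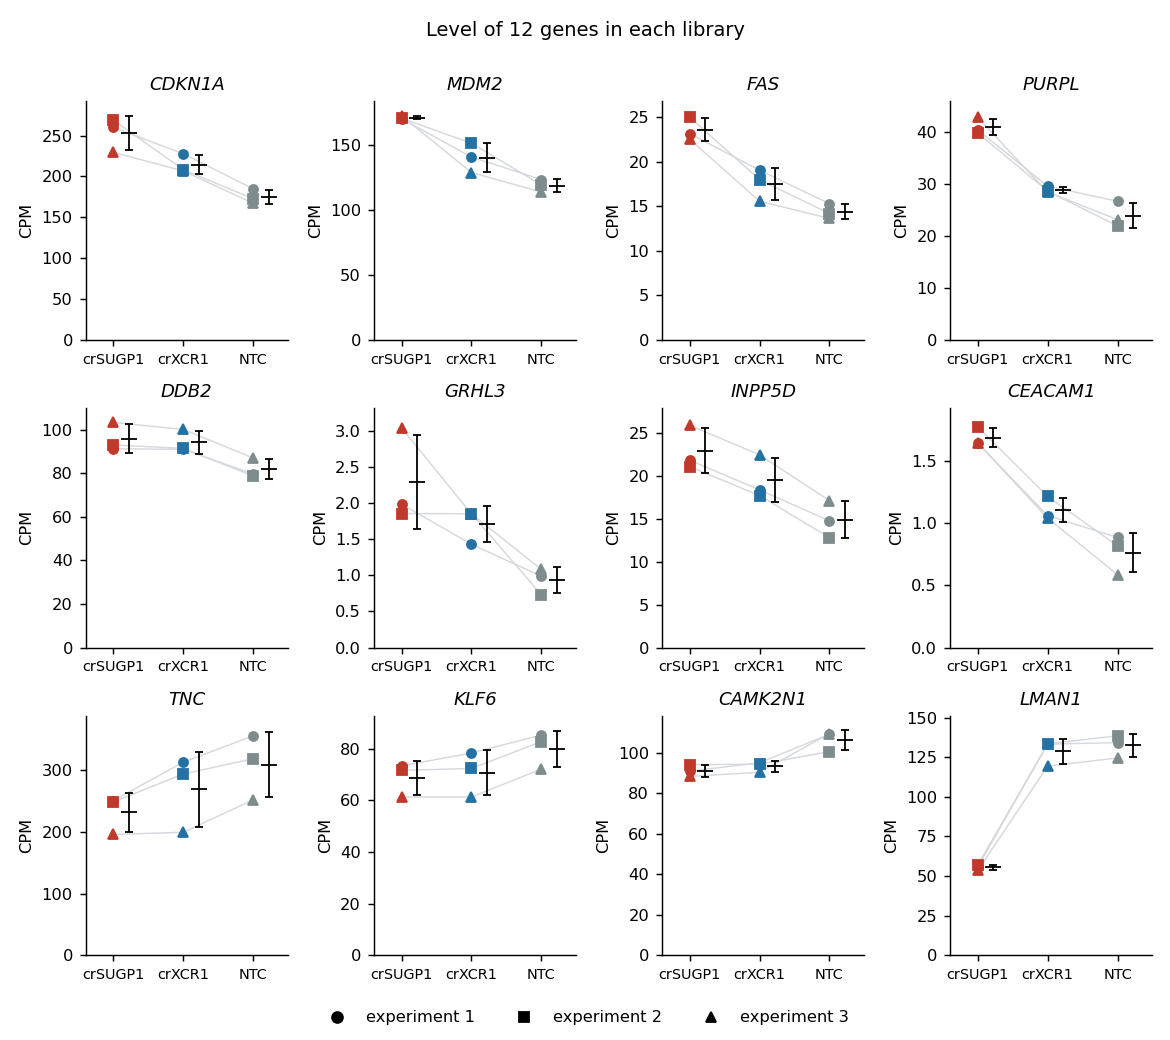
CPM (vertical, from 0) of 12 genes in crSUGP1, crXCR1 and NTC libraries, with a marker per experiment, grey lines joining libraries of the same experiment and black bars for mean ± SD (n = 3). In the upper 8 panels every cut library lies above the NTC library of its experiment, and in the lower 4 every cut library lies below it, with LMAN1 far lower in crSUGP1 alone.

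Fewer genes were counted as lower than as higher, 77 against 145, but without experiment 2 the counts were 90 lower and 82 higher, and the call alone held 257 lower and 204 higher. TNC, the matrix glycoprotein tenascin C, was at 251, 249 and 196 CPM in crSUGP1 libraries, 313, 294 and 199 CPM in crXCR1 libraries and 356, 319 and 252 CPM in NTC libraries. Experiment 3 was low throughout and the groups overlapped, while each cut library lay below its own NTC library, and TNC fell by 0.31 on the log2 scale (SE 0.047, adjusted p = 0.00179). KLF6, a zinc-finger transcription factor, was at 73.3, 71.6 and 61.3 CPM in crSUGP1 libraries, 78.3, 72.3 and 61.3 CPM in crXCR1 libraries and 85.2, 82.7 and 72.1 CPM in NTC libraries. It fell by 0.20 (SE 0.039, adjusted p = 0.0104), with -0.22 in crSUGP1 and -0.18 in crXCR1. CAMK2N1, an inhibitor of the kinase CaMKII, was at 91.0, 94.2 and 88.3 CPM in crSUGP1 libraries, 95.1, 94.4 and 90.4 CPM in crXCR1 libraries and 109, 101 and 110 CPM in NTC libraries, with no overlap. CAMK2N1 fell by 0.21 (SE 0.043, adjusted p = 0.0166), and NRP1, a co-receptor for semaphorins and VEGF, by 0.30 (SE 0.066, adjusted p = 0.0261).

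PAX8-AS1 (-0.38, adjusted p = 0.00298), DPF3, a subunit of the BAF chromatin remodeller (-0.45, adjusted p = 0.00091), and NAT10, an RNA acetyltransferase (-0.24, adjusted p = 0.00499), fell with an unadjusted p under 0.05 in both cut groups. In crSUGP1 and crXCR1, DPF3 stood at -0.70 and -0.19 and NAT10 at -0.36 and -0.12. Both differences were called (adjusted p = 0.000347 and 0.00352). PAX8-AS1 stood at -0.48 and -0.29, a difference that did not pass (adjusted p = 0.0902). Others of the 77 were near 0 in crXCR1. LMAN1, a cargo receptor of the secretory pathway, was at 55.8, 57.0 and 53.6 CPM in crSUGP1 libraries, 133, 133 and 119 CPM in crXCR1 libraries and 134, 139 and 125 CPM in NTC libraries. Its value was -1.26 in crSUGP1 and -0.04 (unadjusted p = 0.351) in crXCR1, so the count of genes that fell is not a count of genes that a cut at XCR1 moved.

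The other lists held at most 2 counted genes each, and the chart of shares by list shows how many lay on the same side in all 6 libraries. A further 15 of their genes were called without lying on the same side in all 6, and 13 of these were within 0.1 of 0 in crXCR1. Over all genes tested, 0.968% were called higher and 1.22% lower, which is the background for the calls in each list. For double-strand break repair, 1 of 39 genes was higher and 1 lower in all 6 libraries and 0 were counted, while PARP2, a poly(ADP-ribose) polymerase, was called lower (-0.44, adjusted p = 1.35e-05) with -0.86 in crSUGP1 and -0.03 in crXCR1. For mitosis 0 of 36 were higher or lower in all 6, and 2 were called lower. S phase and replication genes held 2 higher and 6 lower of 37, and 2 were called lower. Of these MCM6, a subunit of the replicative helicase, was counted, just inside the threshold (-0.17, adjusted p = 0.05, at -0.30 in crSUGP1 and -0.04 in crXCR1). Replication-dependent histone genes held 3 lower of 27 and 2 called lower, of which H4C14 was counted (-0.34, adjusted p = 0.0238). H4C14 overlaps H3C14, and these histone transcripts mostly lack polyA tails. Extracellular matrix genes held 0 higher and 5 lower of 29, with TNC called, against 3.72% lower among all genes.

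Stress lists stood higher in crSUGP1 than in crXCR1, which was not particular to them. The difference was called higher in crSUGP1 for 29 of 55 p53 targets, 12 of 26 NF-kB targets and 13 of 33 SRF and YAP genes. It was called higher in crXCR1 for 0, 0 and 2 of these. Targets of ATF4, the factor of the integrated stress response, had a median of 0.18 in crSUGP1 and -0.03 in crXCR1, and the difference was called higher in crSUGP1 for 19 of 32, beside 9.79% of all genes outside the left-out parts. Of these 32, 5 were higher in all 6 libraries. Against NTC, 6 were called higher and 1 lower, beside 0.968% and 1.22% of all genes tested, left-out parts included. DDIT4, an inhibitor of mTORC1, rose (0.38, adjusted p = 0.00939), with 0.58 in crSUGP1 and 0.18 in crXCR1. ALDH1L2, a mitochondrial folate enzyme, also rose (0.30, adjusted p = 0.0143), with 0.47 in crSUGP1 and 0.14 (unadjusted p = 0.0723) in crXCR1. Heat shock and oxidative stress genes stood at 0.23 in crSUGP1 and -0.04 in crXCR1, with the difference called higher in crSUGP1 for 17 of 22 against the same 9.79%. Of these 22, 1 was higher in all 6, 2 were called higher and 0 were counted. The interferon list held 1 higher and 1 lower of 33 with 0 called, and the NF-kB list 1 and 1 of 26, with 2 called higher and 1 lower, of which CSF1, a macrophage growth factor, was counted (0.24, adjusted p = 0.00563). CSF1 stood at 0.39 in crSUGP1 and 0.09 (unadjusted p = 0.0839) in crXCR1. The unfolded protein response list held DNAJC3 (-0.32, adjusted p = 0.000398) as 1 of 20, carried by crSUGP1 (-0.62, against -0.02 in crXCR1). In the cholesterol list STARD4, a sterol carrier, rose (0.20, adjusted p = 0.0321), and in the lysosome list, where 3 of 25 were called higher, FUCA1, a fucosidase, did (0.41, adjusted p = 0.000256). In crSUGP1 and crXCR1, STARD4 stood at 0.25 and 0.16 and FUCA1 at 0.66 and 0.15. Of the SRF and YAP list, ACTA2 rose and KLF6 fell, and of the senescence list CDKN1A rose. Ribosomal protein and mitochondrially encoded genes held 0 called, as did the osteoblast, leukocyte, epithelial, endothelial and muscle markers. Of these small marker lists, 2 of 6 osteoblast and mesenchymal markers were lower and 1 of 3 epithelial markers was higher in all 6 libraries.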

How the data were processed

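RNA of U-2 OS cells was measured in 9 polyA libraries from 3 experiments. After trimming and alignment to GRCh38, the authors counted the read pairs on exons of a gene and deposited these counts as whole numbers that were not normalized. Versions given by the submitters' processing notes were, from last step to first, R 4.1.0, DESeq2 1.32.0, STAR 2.7.9a, cutadapt 2.4, Trim Galore 0.6.7 and FastQC 0.11.5. Counting was done in SeqMonk with a strand setting that is not given in the sources used here, and 126 of the 222 genes counted as moving together overlap a gene on the opposite strand.

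From the deposited counts, genes that passed a log2 CPM of -2 in 1 or more libraries (21071) were tested with edgeR 4.0.16 in R 4.3.3 (limma 3.58.1) by TMM scaling and the quasi-likelihood test, with Benjamini-Hochberg adjustment over these genes and the experiment as a block. Of names listed more than once, 2 identical repeats and 31 entries at 0 were dropped. The main test pooled crSUGP1 and crXCR1 against NTC. Other settings were DESeq2 1.42.0, a fit with 3 groups, no block, other scaling and filters, and each library left out. Since the pooled test called 0 genes, genes were described from the fit with 3 groups.

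The numbers pair the libraries, because the study ran the 3 guides in each experiment. Deviations from the group means correlated at 0.483 to 0.893 for same-numbered libraries of different groups and at -0.843 to 0.642 for others. Replicates differed beyond sampling noise. The totals above leave a small counting error except for genes near the filter. Scripts were tested on simulated data.

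Named genes were to be the 15 higher and 15 lower counted genes with the largest pooled fold at a mean of at least 1 CPM, up to 6 counted members of each of 24 lists, 6 known p53 targets (CDKN1A, MDM2, BBC3, BAX, GDF15, FAS) and the targeted genes. In the main test this gave only the known p53 targets and the targeted genes, so every other gene was chosen after its values were seen. Members and lists were chosen with earlier results of these data known.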

Additional observations from a re-analysis of the deposited data

Results flagged for a closer look

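The cut groups were compared with each other for 67 genes named here, in the same fit, and the change against NTC differed between crSUGP1 and crXCR1 for 41 of them at an adjusted p of at most 0.05. Over all genes outside the left-out parts this difference was called for 20.6%. Most of the 67 were named after their values were seen. The call on the mean also favours genes that moved far in crSUGP1, so a larger share was built in and adds no evidence. Given as crSUGP1 minus crXCR1 on the log2 scale, the difference among p53 targets was 0.24 for CDKN1A, 0.29 for MDM2, 0.43 for FAS, 0.51 for PURPL, 0.28 for BTG2, 0.39 for SESN1, 0.38 for SESN2, 0.32 for FDXR, 0.30 for RRM2B, 0.35 for ZMAT3, 0.21 for PPM1D, 0.28 for PMAIP1, 0.22 for POLH, 0.42 for PTP4A1, 0.24 for EDA2R, 0.18 for PLK3 and 0.42 for XPC. Among the other genes that rose it was 0.43 for PTCHD4, 0.42 for GRHL3, 0.24 for INPP5D, 0.32 for IGFL2-AS1, 0.35 for NECTIN4, 0.60 for CEACAM1, 0.40 for DDIT4, 0.33 for ALDH1L2, 0.30 for CSF1, 0.51 for FUCA1, 0.15 for EFCAB14 and 0.19 for AC093866.1, and 3.28 and 2.49 for AL158196.1 and LINC00315, both under 1 CPM. Among those that fell it was -0.20 for TNC, -0.50 for DPF3, -0.24 for NAT10, -0.25 for MCM6, -0.59 for DNAJC3 and -1.21 for LMAN1, for PARP2, which was called lower but not counted, -0.83, and for the targeted gene SUGP1 it was -2.01. In the left-out part of chromosome 3, where XPC also lies, it was 0.36 for TMEM43 and -1.36 for XIRP1. There the values against NTC in crSUGP1 and crXCR1 were 0.04 and -0.32 for TMEM43, 0.68 and 2.04 for XIRP1 and 0.27 and -0.15 for XPC. These differences thus include a change in crXCR1. What the differences between the cut groups follow was not tested. Outside the left-out parts, loss of SUGP1 and the place or efficiency of either cut cannot be told apart.

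Among the 6 cut libraries, GRHL3 in crSUGP1 replicate 3 stood apart from the rest at 3.05 CPM. Dixon's test, which was used for this, flags about 1 in 20 groups by chance.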

How the results depend on the processing

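The pooled test called 0 genes without the replicate block, with RLE size factors, at 1 CPM in 3 libraries, with TMM factors from outside the left-out parts and without any of the 9 libraries (0 to 0). With no filter on low counts it called 1 gene, GRHL3, which was higher in all 6 cut libraries (1 with the fold minimum of 0.5 too). DESeq2 called 16 genes, of which 15 were counted as higher (5 at the fold minimum), and the fit with 3 groups called 461, with 145 counted as higher and 77 as lower (38 and 7 at the fold minimum). Of 67 named genes, PERP, GADD45A, MDM4, PMAIP1 and XPC changed sign in the pooled fit, none of them called. PERP was at -0.000309 with 3 groups, -0.00246 with DESeq2, -0.00205 with RLE factors, -0.00455 with no filter, -0.00074 at 1 CPM in 3 libraries and -0.00624 with TMM factors from outside the left-out parts. Leaving out each library in turn, PERP ranged between -0.0319 and 0.0361, GADD45A between -0.013 and 0.0583, MDM4 between -0.11 and 0.0164, PMAIP1 between -0.00641 and 0.127 and XPC between -0.00523 and 0.135.

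The 3-group counts were varied with settings chosen after seeing the data. Without the replicate block, 10 genes were counted higher and 7 lower, and 5 p53 targets higher. With no filter, 132 were lower. Without experiment 1 the counts were 44 higher, 31 lower and 14 p53 targets higher, without experiment 2 82 higher and 90 lower, and without experiment 3 119 lower. Leaving out each library in turn gave 55 to 316 higher (lowest without NTC replicate 1, highest without crSUGP1 replicate 3), 48 to 227 lower and 17 to 33 p53 targets higher. Leaving out an NTC library also leaves 4 in place of 6 differences to read. The causes of these shifts were not tested. Of the 67 named genes, DESeq2 called 16 and the 3-group fit 57, beside GRHL3 in the pooled fit with no filter. Over all genes tested, DESeq2 called 0.0759%, and the 3-group fit called 0.968% higher and 1.22% lower. Most of the 67 were named because the 3-group fit called them, so these counts were largely built in and do not measure how stable the result is.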
